A study of Vitis vinifera with 24 samples.

Results

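Whole berries of Sauvignon blanc, the white grapevine cultivar, were compared between the seasons 2014 and 2013 in vines that received no nitrogen fertiliser (control), at 35 days after mid-veraison (v + 35). Veraison is the onset of ripening, when the berry softens, and mid-veraison is the day when about equal numbers of berries were soft and hard. The comparison rested on 6 of the 24 RNA sequencing libraries of the study, 3 of 2014 and 3 of 2013. All came from the same estate near Bordeaux. The comparison covered the genes that were listed in the expression tables of both years. The vines of 2014 and of 2013 were a different clone on a different rootstock, and thus different plantings. The libraries of each year were deposited as a table of their own. Season, clone, rootstock, planting and sequencing run therefore changed together and cannot be told apart. Each library was made from whole berries with skin, flesh and seeds, so fewer cells of a type and less RNA per cell cannot be told apart either. For context, values are also given for the 6 libraries of vines fertilised with 100 kg of N per hectare in the soil (soil N100) at (v + 35) of both years, and for the 6 control libraries at 28 days (v + 28). None of these libraries entered the main comparison.

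In the weeks after veraison a grape berry loads sugar, loosens its cell walls, loses much of its chlorophyll and fills with pathogenesis-related proteins, while the seeds inside dry and keep their storage reserves. The same berry therefore reports on flesh metabolism, on the remaining green tissue, on the vascular strands and on the seeds at the same time. Families such as the wound-responsive proteins, the osmotins and the lipid transfer proteins often lie as tandem copies in the grapevine genome.

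Expression is given as RPKM, a read count corrected for gene length and for library size. The values below were further divided by a median-ratio factor for each library (0.936 to 1.003 in 2014 and 1.019 to 1.063 in 2013), and the 3 values of a year are listed in the order of the replicates. Reads in listed genes were 49.0 to 80.0 M per library in 2014 and 29.6 to 63.9 M in 2013. A log2 fold change (LFC, 2014 over 2013) was estimated with limma on log2(RPKM + 0.5), which understates the change of genes near or below 0.5 RPKM. A gene was called when its Benjamini-Hochberg adjusted p was at most 0.05 and its LFC at least 0.6 in size. For 1 gene alone, the smallest p that 3 against 3 libraries allow in an exact two-sided permutation test is 0.1. The 3 libraries of a year are replicates within the same season, so each p measures the spread between replicates and not that between seasons.

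The libraries of 2014 were less alike than those of 2013. Across genes the log2 values correlated with r = 0.9698 to 0.9855 within 2014, against r = 0.9911 to 0.9938 within 2013, and with r = 0.9434 to 0.9833 between the years. The median SD of a gene between replicates was 0.171 in 2014 and 0.108 in 2013 on the log2 scale. Replicate 2 of 2014 stood apart from the other two. On the first principal component, which held 64.9% of the variance, it lay at -2.4, whereas replicates 1 and 3 of 2014 lay at -50 and -36.3 and the libraries of 2013 at 20 to 39.5. Over the 3644 genes called without this library, it lay at a median of 0.47 of the way from the mean of 2013 to the mean of the other libraries of 2014. These genes were called from the other libraries, so the choice itself draws a left-out library of 2014 towards 2013. No such value was taken for replicates 1 and 3, so 0.47 does not measure how far replicate 2 stood apart. Replicate 2 was closer to the soil N100 libraries of the same year and stage (r = 0.9894 to 0.9950) than to the other control libraries (r = 0.9713 to 0.9856). Replicate 3 of 2014 was also closer to the soil N100 libraries (r = 0.9892 to 0.9915), and replicate 1 was about as far from both (r = 0.9780 to 0.9815 with soil N100). The counts over all genes are therefore given with and without it, as are those of the families that it moved most.

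The libraries also differed by gene length. When the tested genes were sorted by length into 5 classes of equal size, the shortest class (up to 771 bases) had a median LFC of 0.21 and the longest (from 2157 bases) a median LFC of -0.24. Of the shortest genes 14.9% were called higher in 2014 and 4.04% lower, and of the longest 0.577% were called higher and 9.58% lower. In replicates 1 and 3 of 2014 the shortest class lay 0.18 and 0.20 above the gene means. The longest class lay 0.22 and 0.19 below them. Replicate 2 of 2014 was nearly flat (-0.03 and 0.05), and in 2013 the shortest class lay 0.07 to 0.17 below the gene means and the longest 0.09 to 0.18 above. The gene means are over all 6 libraries, so which libraries carried the trend cannot be told from these values. The same order was seen in soil N100 berries (0.17 and -0.19) and, more weakly, in control berries at (v + 28) (0.07 and -0.08). An alternative that removed the length trend from every library was chosen after seeing the data, and its values are given for the counts over all genes, for the main families and wherever a named gene changed its call. By expression level, the median LFC was -0.07 in the lowest class and 0.20 in the highest.

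**Figure D1:**
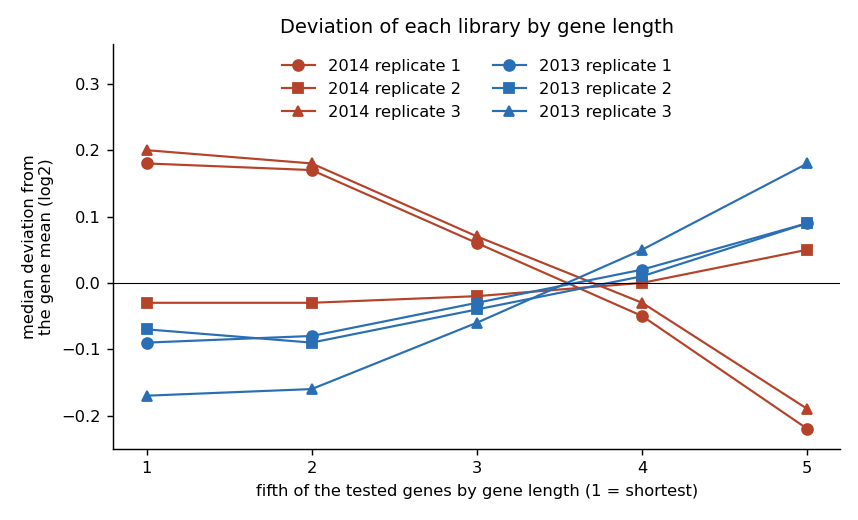
Median deviation from the gene mean (log2, y axis) in each of the 6 control libraries at 35 days, by class of gene length (x axis, 5 classes of equal size, 1 is the shortest). Replicates 1 and 3 of 2014 fall from 0.18 and 0.20 to -0.22 and -0.19, replicate 2 of 2014 stays between -0.03 and 0.05, and the libraries of 2013 run the other way.

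Of 17321 genes tested, 1223 were higher and 899 lower in the berries of 2014, together 2122 genes or 12.3% (7.06% higher and 5.19% lower). Most differences were moderate. The median LFC of the called genes was 0.78 for the higher and -0.80 for the lower ones, and 285 higher and 202 lower genes differed more than 2-fold. More than 4-fold differences were found in 32 higher and 13 lower genes, and 3 genes were more than 8-fold higher. The libraries of the years did not overlap in 46.7% of all genes tested (25% higher and 21.8% lower), including 1223 of the higher and 898 of the lower called genes. Without replicate 2 of 2014, 2022 genes were higher and 1628 lower (21.1% together, 11.7% and 9.39%), among them 1199 and 875 of the genes called with it. With the length trend removed 672 were higher and 859 lower (8.84% together, 3.88% and 4.96%), among them 615 and 605 of the genes called before. With the RPKM as deposited, without rescaling, 834 were higher and 1281 lower, and quantile normalization gave 934 and 1015, so the balance between the directions depended on the scaling. The median LFC of all genes was 0.022 with and -0.062 without rescaling. The number of calls also rested on single libraries, with 203 genes called without replicate 3 of 2013, 567 without replicate 1 and 1291 without replicate 2 of that year, and with 1144 without replicate 1 and 687 without replicate 3 of 2014. In all 6 of these fits 119 higher and 74 lower genes remained called.

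**Figure D2:**
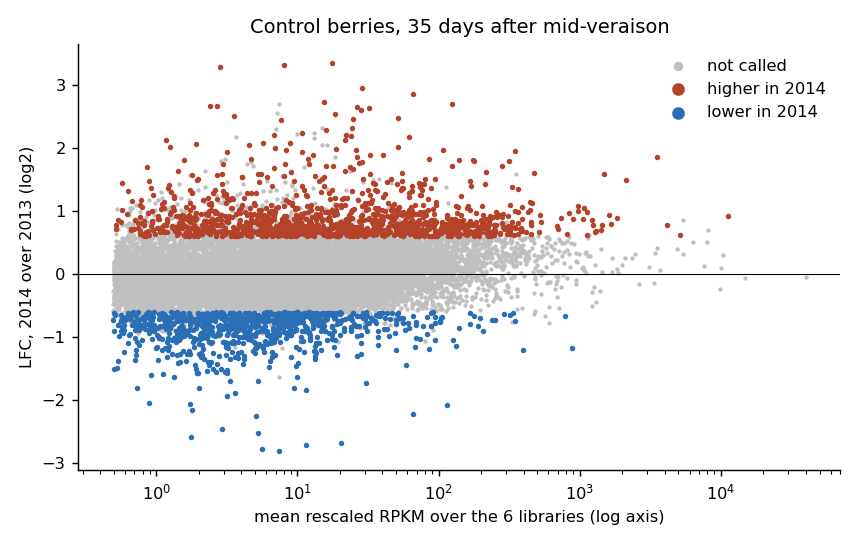
LFC of 2014 over 2013 (y axis) against the mean rescaled RPKM over the 6 libraries (x axis, log scale) for the 17321 genes tested. The 1223 genes called higher in 2014 are above zero, also among the most abundant transcripts, and the 899 genes called lower lie mostly at low and middle levels.

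By the rescaled values the most abundant transcripts leaned to 2014. This lean was not examined with the length trend removed or without rescaling. Of the 100 genes with the largest mean RPKM, 26 were higher and 2 lower, with a median LFC of 0.32 over the 100, against a median LFC of 0.02 over all genes tested. By chromosome of the gene ID, 9.69 to 15.6% of the tested genes were called, so the calls were spread over the genome.

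The same contrast was made in the soil N100 berries, which share no library with the controls. There 913 genes were higher and 768 lower in 2014 (9.73% of 17268, 5.29% and 4.45%). With the length trend removed these were 556 and 763. Of the genes higher in the main comparison, 1214 were tested in soil N100 berries. Of these, 1202 had the same sign and 669 were also called, with a median LFC of 0.65. Of the 888 lower genes 871 had the same sign and 443 were also called, with a median LFC of -0.63. The length trend ran the same way in both treatments, and its part in the equal signs was not tested. No share of equal signs was taken over all genes tested. With the length trend removed in control berries alone, 615 higher and 605 lower genes stayed called. Of these, 430 and 331 were also called in soil N100 berries. The difference between the year effects of control and soil N100 berries was tested by an interaction contrast, and 0 of 17268 genes passed. The smallest adjusted p from limma was 0.14, 862 genes (4.99%) had an unadjusted p under 0.05, and 0 were called when the recovered reads were fitted with limma-voom.

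**Figure D3:**
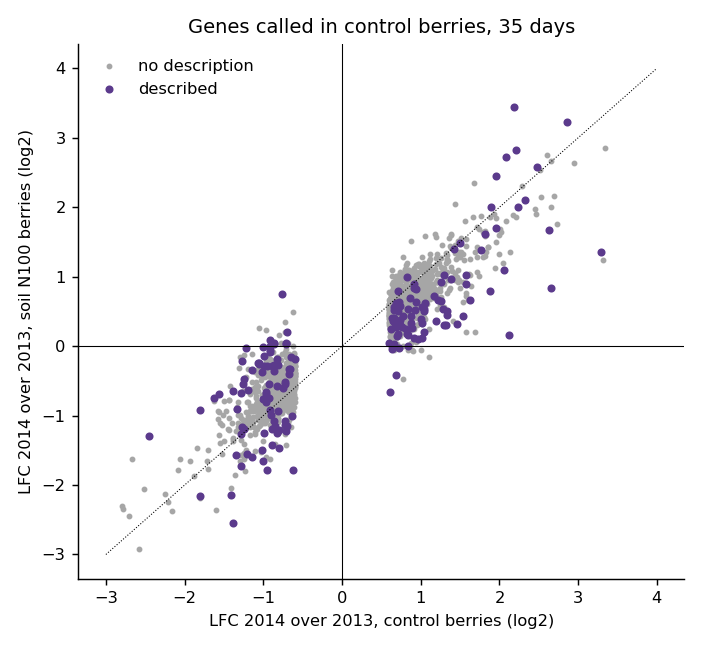
LFC of 2014 over 2013 in soil N100 berries (y axis) against control berries (x axis) at 35 days, for the genes called in control berries, with the described genes in purple and the line of equal change dotted. Nearly all points lie in the quadrants of equal sign, 1202 of 1214 higher and 871 of 888 lower genes.

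Functions were known only for genes that the study described in its tables, 492 of the tested genes, of which 87 were higher and 83 lower (34.6% called, 17.7% higher and 16.9% lower). The study had chosen these genes for a response to nitrogen, measured partly between these control libraries and the soil N100 libraries at (v + 35). The counts per family below are therefore no independent evidence for the direction of a family. Each count is to be read against the shares of 17.7% higher and 16.9% lower over all described genes. A count near these shares is no result about the family. The year difference of the soil N100 berries is set beside some families for comparison. Those libraries were the other side of that choice, so they are no independent check. The choice itself can shift the year differences of the treatments in opposite directions. Roles are those known from plants in general or from Arabidopsis, whose names the descriptions carry.

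The largest group difference was in the wound-responsive family, small proteins first known from their induction in wounded leaves. All 8 tested members were higher in 2014, with a median LFC of 2.14, and 7 of them lie within 12 neighbouring gene IDs on chromosome 12. *VIT_12s0057g00090* was at 129.5, 79 and 138 RPKM in 2014, against 10.7, 24.3 and 13 RPKM in 2013. Its lowest library of 2014 was 3.25 times its highest library of 2013 (7.25-fold, LFC 2.86, SE 0.33, limma adjusted p = 0.0071). *VIT_12s0057g00080* was at 105, 55.4 and 103 RPKM in 2014, against 15.4, 20 and 10.2 RPKM in 2013 (LFC 2.48, SE 0.31). *VIT_12s0057g00060*, the most abundant member, was at 182, 80.5 and 139 RPKM in 2014, against 36.8, 46.5 and 26 RPKM in 2013 (LFC 1.82, SE 0.32). In each of these genes replicate 2 of 2014 was the lowest of its year. It was still above all libraries of 2013, as in every gene called higher. *VIT_12s0057g00070*, *VIT_12s0057g00100*, *VIT_12s0057g00120* and *VIT_12s0057g00170* had LFC 2.19, 1.96, 2.08 and 2.21. The member outside the cluster, *VIT_19s0014g03730* on chromosome 19, had LFC 0.92. The family was also higher in soil N100 berries (8 of 8 called, median LFC 2.65) and in control berries at (v + 28) (8 of 8, median LFC 1.17). With the length trend removed 8 of 8 were called, with a median LFC of 1.87. In the fits without 1 library 2 of the 8 remained called every time. Reads were kept by the authors only when they aligned uniquely, so the share of each tandem copy is uncertain where the copies are nearly identical.

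Neighbouring genes that moved together were found in 5 places, counted as runs of at least 4 consecutive tested gene IDs called in the same direction, 31 genes in all. The longest run held the 7 wound-responsive genes of chromosome 12 together with 5 neighbours that have no description, 12 genes in a row with LFC 1.06 to 2.86. Their summed level was 358 to 654 RPKM in 2014, against 96.3 to 174 RPKM in 2013, and 12 of the 12 were also called in soil N100 berries. A run of 6 genes without description on chromosome 14 was lower in 2014, with a summed level of 11.9 to 22.5 RPKM, against 29.1 to 35.3 RPKM in 2013. Its members had LFC -1.44 to -0.77, and 6 of 6 were lower in soil N100 berries but 0 of 6 at (v + 28). A run of 5 on chromosome 19 was higher (160.3 to 263 RPKM in 2014, against 77.9 to 115 RPKM in 2013). A run of 4 on chromosome 16 was lower (5.55 to 9.19 RPKM in 2014, against 14.8 to 17.6 RPKM in 2013), and a run of 4 on chromosome 18 was higher (51.4 to 68.8 RPKM in 2014, against 26.9 to 33.9 RPKM in 2013). The run on chromosome 18 contained *VIT_18s0041g00590*, a proton-dependent oligopeptide transporter at 1.72, 1.34 and 1.94 RPKM in 2014, against 0.672, 0.672 and 0.336 RPKM in 2013 (LFC 1.04, SE 0.18). In the 4 shorter runs no gene stayed called in every fit without 1 library. With the length trend removed 12 of 12 genes were called on chromosome 12, 5 of 6 on chromosome 14, 4 of 5 on chromosome 19 and 4 of 4 on chromosome 18, but 2 of 4 on chromosome 16, which then no longer met the minimum length of a run.

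**Figure D4:**
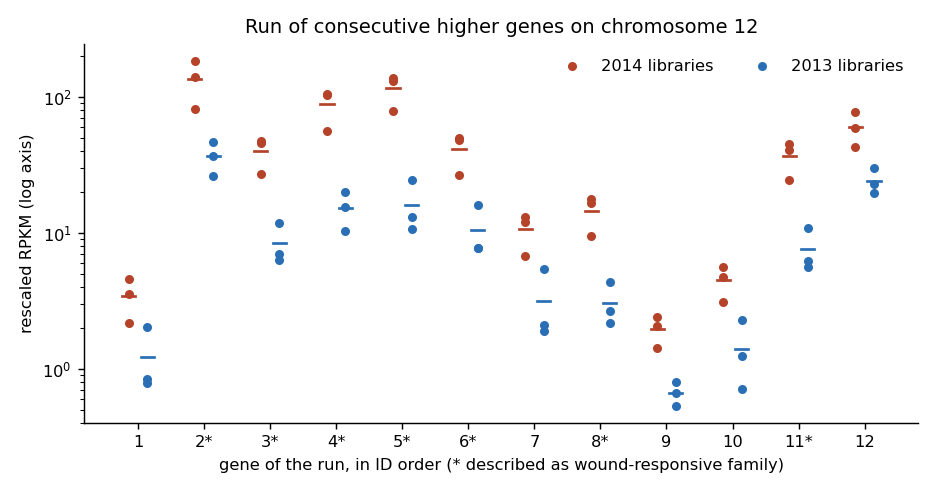
Rescaled RPKM (y axis, log scale) in the control libraries of 2014 (left of each pair) and 2013 (right) for the 12 consecutive genes of the run on chromosome 12, in ID order. Points are libraries, bars are means, and asterisks mark the 7 genes described as wound-responsive family. The 3 libraries of 2014 lie above the 3 of 2013 in all 12 genes, as in every gene called higher and in 25% of all genes tested.

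Senescence-associated genes were higher in 2014 in 4 of 6 tested members, with none lower and a median LFC of 1.11. *SAG21* (*VIT_07s0005g00660*), a small protein linked to oxidative stress tolerance in Arabidopsis, was among the most abundant transcripts of the berry. It was at 2469, 1444 and 2758 RPKM in 2014, against 773, 871 and 546 RPKM in 2013 (LFC 1.58, SE 0.29, limma adjusted p = 0.0154). The libraries of the years did not overlap, as in every gene called higher. Replicate 2 of 2014 was again the lowest of its year. *SRG3* (*VIT_14s0068g01500*), a glycerophosphodiester phosphodiesterase, was at 73, 25.7 and 30.7 RPKM in 2014, against 10.7, 14.9 and 8.46 RPKM in 2013 (LFC 1.76, SE 0.39). Replicate 1 of 2014 was far above the other libraries of its year. The senescence-associated proteins *VIT_11s0016g00690* and *VIT_15s0021g00940* had LFC 1.42 and 0.72, the second of which was not called with the length trend removed (LFC 0.44). With soil N100, 4 of 6 were called as well (median LFC 0.83), and *SAG21* and *SRG3* had LFC 1.02 and 1.38 there.

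The PP2-B genes are named after a lectin-like protein of the phloem, and the 3 described members lie close together on chromosome 14. Of these, 2 were higher. *PP2-B13* (*VIT_14s0060g02000*) was at 54.2, 44.7 and 66.8 RPKM in 2014, against 9.45, 9.51 and 6.58 RPKM in 2013 (6.18-fold, LFC 2.63, SE 0.19, limma adjusted p = 0.00278). *PP2-B15* (*VIT_14s0060g02020*) was at 4.68, 2.22 and 3.34 RPKM in 2014, against 0.489, 0.565 and 0.204 RPKM in 2013 (LFC 2.06, SE 0.26). Both stayed called in every fit without 1 library and with the length trend removed. A second gene described as PP2-B15, *VIT_14s0060g01990*, was at 12.2, 9.74 and 11.1 RPKM in 2014, against 8.36, 8.65 and 5.08 RPKM in 2013 and was not called (LFC 0.58, SE 0.20). With soil N100 the 2 genes were called too (LFC 1.67 and 1.09), and the third had LFC -0.32.

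Photosystem and Calvin cycle genes, which encode the light harvesting and carbon fixing machinery of the green berry tissue, were higher in 12 of 29 tested members and lower in 1, with a median LFC of 0.51. Their summed level was 856, 824 and 746 RPKM in 2014, against 592, 498 and 489.7 RPKM in 2013. Here replicate 2 of 2014 lay with the other libraries of its year, and without it 11 were higher and 1 lower. The subunit of photosystem II *VIT_13s0064g00670* was at 57.1, 44.3 and 45.7 RPKM in 2014, against 18.2, 16 and 13.9 RPKM in 2013 (LFC 1.58, SE 0.14, limma adjusted p = 0.00388). *PSBQ-2* (*VIT_00s0904g00010*), of the oxygen-evolving complex, was at 26.9, 25.4 and 23.5 RPKM in 2014, against 11.8, 9.59 and 8.25 RPKM in 2013 (LFC 1.33, SE 0.13). *PSAL* (*VIT_04s0023g00410*), a subunit of photosystem I, was at 27, 26 and 22.8 RPKM in 2014, against 13.1, 11.5 and 12.5 RPKM in 2013 (LFC 1.00, SE 0.10). The photosynthetic electron transporter *VIT_12s0134g00510* had LFC 1.05 (SE 0.11). These 4 genes stayed called in every fit without 1 library. In contrast, the carbon fixing enzyme phosphoribulokinase (*VIT_02s0109g00080*) was at 28.7, 36.5 and 23 RPKM in 2014, against 27.3, 25.3 and 26.5 RPKM in 2013 (LFC 0.13, not called). The 1 lower member, the photosystem II subunit *VIT_18s0001g11710*, was at 1.25, 1.43 and 1.01 RPKM in 2014, against 3.02, 1.96 and 2.13 RPKM in 2013 (LFC -0.72, SE 0.17). These last genes were picked out after their values had been seen.

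The photosystem genes were short, with a median length of 913 bases, and with the length trend removed 9 were higher and 2 lower (median LFC 0.38). Under soil N100 2 were higher and 3 lower in 2014, with a median LFC of -0.03. No single gene passed the test of the difference between the treatments. The study chose these genes for a response to nitrogen, so the medians of the treatments are not independent of that choice. At (v + 28) in control berries 19 were higher and none lower, with a median LFC of 0.91. Of 3 genes of chlorophyll synthesis 1 was higher. This protochlorophyllide oxidoreductase, *VIT_12s0059g00270*, was at 3.91, 2.31 and 3.29 RPKM in 2014, against 1.11, 1.43 and 0.818 RPKM in 2013 (LFC 1.17, SE 0.21). The more abundant enzyme of the same step, *PORA* (*VIT_19s0014g03160*), named after its values were seen, was at 12.5, 12.4 and 9.76 RPKM in 2014, against 13.9, 10.6 and 10.6 RPKM in 2013, which overlap (LFC -0.01, not called), and it was lower in 2014 in soil N100 berries (LFC -0.64).

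Genes of seed storage proteins, oleosins and late embryogenesis abundant (LEA) proteins were listed together as seed genes. Where in the berry they were expressed was not measured, and LEA genes need not be confined to the seed. Of 15 tested, 1 was higher and 6 were lower in 2014, with a median LFC of -0.55. The LEA protein gene *VIT_08s0007g04240* was at 46.7, 29.4 and 51.5 RPKM in 2014, against 84.2, 103 and 91.5 RPKM in 2013 (LFC -1.15, SE 0.21, limma adjusted p = 0.0153). *VIT_06s0004g03260*, a cupin of the storage globulin fold, was at 6.41, 5.92 and 7.85 RPKM in 2014, against 12.3, 16.1 and 15.3 RPKM in 2013 (LFC -1.06, SE 0.14). *VIT_18s0001g02840*, of the LEA domain family, had LFC -0.65. The higher member was *CRU3* (*VIT_07s0005g03410*), a cruciferin of the 12S globulin type, at 47.2, 13.5 and 47.9 RPKM in 2014, against 8.36, 8.3 and 4.53 RPKM in 2013 (LFC 2.12, SE 0.49). Its neighbour *VIT_07s0005g03420*, also described as CRU3 and named here after its values were seen, was at 52.7, 17.7 and 62.1 RPKM in 2014, against 18, 17 and 8.55 RPKM in 2013, which overlap (LFC 1.46, SE 0.49, not called).

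Replicate 2 of 2014 held much less of the transcripts of this list than the other libraries. The summed level of the 15 genes was 640.0, 302 and 669 RPKM in 2014, against 609, 762 and 628 RPKM in 2013. The oleosins followed this, with *OLEO1* (*VIT_16s0013g00880*) at 77.5, 31.5 and 71.5 RPKM in 2014, against 79, 88.9 and 78.1 RPKM in 2013, and *OLEO4* (*VIT_17s0000g09000*) at 100.4, 39.2 and 85.5 RPKM in 2014, against 80.1, 99.1 and 72.1 RPKM in 2013. Neither was called (LFC -0.55 and -0.25), and both were named after their values were seen. Without this library 2 seed genes were higher and 5 lower, and the median LFC was -0.21 in place of -0.55. After removal of the length trend 1 was higher and 8 were lower, with a median LFC of -0.77. The part that the seed share of a library plays in the year difference was not tested. Under soil N100 0 of 15 were called by limma, with 0 at an unadjusted p under 0.05 and 0 called by limma-voom, and the median LFC was -0.03.

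**Figure D5:**
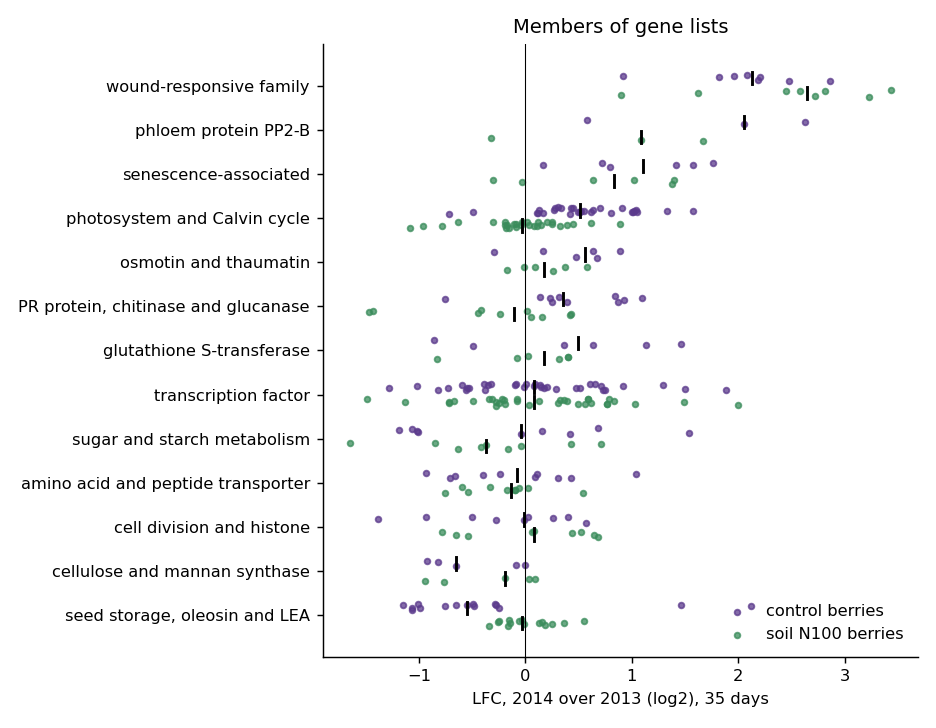
LFC of 2014 over 2013 at 35 days (x axis) for the tested members of selected gene lists (y axis), in control berries (upper points of each list, purple) and soil N100 berries (lower points, green), with black bars at the medians. The medians of the wound-responsive, PP2-B and senescence-associated lists lie to the right of zero in both treatments. That of the photosystem list does so in control berries (median 0.51) but not in soil N100 berries (median -0.03). The listed genes were chosen by the study for a response to nitrogen, measured between these treatments.

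The single described gene with the largest rise was *VIT_13s0019g01550*, described as of the protease inhibitor, seed storage and lipid transfer protein family. It was at 9.11, 1.68 and 6.14 RPKM in 2014, against 0.0414, 0.0455 and 0 RPKM in 2013, that is 329, 94 and 192 reads against 1, 1 and 0 reads. Its LFC of 3.29 (SE 0.49) depends on the pseudocount and became 5.20 with a pseudocount of 0.1. In soil N100 berries it had LFC 1.36 and was not called. The other 6 lipid transfer protein genes tested were not called. *DOX1* (*VIT_14s0066g01690*), an alpha-dioxygenase that oxidises fatty acids, was at 5.23, 2.98 and 6.91 RPKM in 2014, against 0.234, 0.662 and 0.182 RPKM in 2013 (6.33-fold, LFC 2.66, SE 0.32). *BPS1* (*VIT_13s0158g00090*), whose Arabidopsis namesake restrains a signal that moves out of the root, was at 47, 31 and 43.5 RPKM in 2014, against 6.84, 11.1 and 5.75 RPKM in 2013 (LFC 2.32, SE 0.25). Among the heat shock and DNAJ proteins, chaperones of protein folding, 2 of 5 were higher, both of the DNAJ type. *VIT_18s0001g14440* was at 19, 14.5 and 20.6 RPKM in 2014, against 3.66, 4.13 and 2.57 RPKM in 2013 (LFC 2.24, SE 0.19), and *VIT_03s0038g02110* had LFC 1.29. *BPS1* and the first DNAJ gene were also called in soil N100 berries (LFC 2.00 for the DNAJ gene), whereas *DOX1* had LFC 0.83 there and was not called.

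Of 10 tested genes for pathogenesis-related proteins, chitinases and glucanases, which attack fungal walls, 2 were higher and none lower (median LFC 0.36, and -0.11 in soil N100 berries). *PR-4* (*VIT_14s0081g00030*) was at 525, 488 and 476 RPKM in 2014, against 361, 261 and 210.1 RPKM in 2013 (LFC 0.87, SE 0.19), and the chitinase *EP3* (*VIT_05s0094g00300*) at 39.4, 28.1 and 37.9 RPKM in 2014, against 21.1, 18.5 and 18.2 RPKM in 2013 (LFC 0.84, SE 0.14). Osmotins and thaumatin-like proteins are defence proteins that accumulate in ripe berries, and 1 of 6 was higher. This was the most abundant of them, *VIT_02s0025g04310*, at 1067, 1001 and 772 RPKM in 2014, against 652, 509 and 390.4 RPKM in 2013 (LFC 0.89, SE 0.21), which was not called with the length trend removed (LFC 0.69).

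Among the lower genes, *VIT_00s0357g00130*, an annexin that binds calcium and membranes, was at 0.595, 0.678 and 0.404 RPKM in 2014, against 5.75, 4.48 and 5.58 RPKM in 2013 (LFC -2.45, SE 0.15, limma adjusted p = 0.00166). An inhibitor of invertase or pectin methylesterase, *VIT_19s0027g01810*, was nearly absent from the berries of 2014, at 0.0482, 0.0467 and 0.0279 RPKM, against 1.87, 1.86 and 1.45 RPKM in 2013 (LFC -2.04, SE 0.13). The jacalin lectin *VIT_18s0001g13210* was at 3.69, 6.26 and 2.51 RPKM in 2014, against 15.1, 15.3 and 14.1 RPKM in 2013 (LFC -1.80, SE 0.27). The glycosyl transferase *VIT_06s0004g05660* and the ADP-ribosyltransferase *VIT_06s0080g00260* had LFC -1.80 and -1.63. *VIT_13s0047g01230*, the 1 UDP-glycosyltransferase called among 8, had LFC -1.56, and *CAX3* (*VIT_08s0007g02240*), which moves calcium into the vacuole, had LFC -1.29. The beta-glucosidase *VIT_13s0064g01760* was listed at 0.075, 0.0762 and 0.0372 RPKM in 2014, against 1.33, 1.16 and 0.533 RPKM in 2013 (LFC -1.38, SE 0.23). Of these genes all but the jacalin lectin, *CAX3* and the beta-glucosidase stayed called in every fit without 1 library.

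Cell wall genes were mostly not called in control berries, but more of them were lower in 2014 in soil N100 berries. There 5 of 10 expansins and xyloglucan transferases were lower and 1 higher (median LFC -0.53). Of 9 pectin enzymes 4 were lower there and none higher (median LFC -0.45). Of all genes tested 5.29% were higher and 4.45% lower in soil N100 berries, and the share over the described genes was not taken there. By the interaction contrast 0 of 17268 genes differed between the treatments. The study chose these genes for a response to nitrogen, so the counts of the treatments are not independent of that choice. The values that follow are those of control berries. *PARVUS* (*VIT_18s0001g11860*), which acts in xylan synthesis in Arabidopsis, was lower (0.549, 0.7 and 0.343 RPKM in 2014, against 3.42, 1.66 and 1.87 RPKM in 2013, LFC -1.41, SE 0.25). Of 5 cellulose and mannan synthases 2 were lower and none higher (median LFC -0.65), namely the cellulose synthase-like *VIT_00s0531g00060* (LFC -0.92) and the mannan synthase *VIT_06s0061g01230* (LFC -0.82). The second was not called with the length trend removed (LFC -0.61). Of 10 expansins and xyloglucan transferases, proteins that let the wall extend, 1 was higher and 1 lower. The expansin A6 gene *VIT_08s0007g00440* was at 1.72, 2.07 and 1.07 RPKM in 2014, against 7.24, 3.19 and 4.7 RPKM in 2013 (LFC -1.35, SE 0.29). The abundant expansin *VIT_13s0067g02930* was at 739, 1145 and 731 RPKM in 2014, against 611, 473 and 488 RPKM in 2013 (LFC 0.71, SE 0.21), a call that was lost without any 1 of the 6 libraries and with the length trend removed. The pectate lyase *VIT_17s0000g09810*, which cuts the pectin between cells, was at 60, 90.3 and 48.7 RPKM in 2014, against 35.1, 33 and 32.4 RPKM in 2013 (LFC 0.93, SE 0.21), and the other 8 pectin enzymes tested were not called.

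Of the genes of nitrogen and amino acid metabolism, the subject of the study, 1 of 6 was higher and none lower in these unfertilised vines. The nitrite reductase *VviNiR* (*VIT_03s0063g00370*), which reduces nitrite to ammonium, was at 34.1, 30.8 and 28.9 RPKM in 2014, against 31.1, 24.6 and 27.7 RPKM in 2013, which overlap (LFC 0.17, SE 0.11, limma adjusted p = 0.284). NADH glutamate synthase (*VIT_16s0098g00290*), which passes ammonium on to glutamate, was at 27.6, 40.5 and 26.7 RPKM in 2014, against 38.1, 35 and 39.2 RPKM in 2013 (LFC -0.27, SE 0.16). Its gene is very long (7364 bases), and with the length trend removed the sign turned to LFC 0.31, still below the fold threshold. The asparagine synthase *ASN1* (*VIT_06s0004g06830*), which makes the transport amide asparagine, was the 1 of 6 nitrogen and amino acid genes that was called. It was at 4.54, 4.14 and 4.5 RPKM in 2014, against 1.43, 2.1 and 0.978 RPKM in 2013 (LFC 1.32, SE 0.20, limma adjusted p = 0.0113) and stayed called in every fit without 1 library. In soil N100 berries it had LFC 0.30 and was not called, and the difference between the treatments did not pass the interaction test (limma adjusted p = 0.96).

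The nitrate transporter-like gene *VIT_01s0026g01570* was higher, at 39.2, 35.3 and 26.3 RPKM in 2014, against 23.6, 20.1 and 16.6 RPKM in 2013 (LFC 0.72, SE 0.18). The nitrite transporter-like gene *VIT_01s0011g03400* (described as POT family) was lower, at 1.06, 0.659 and 1.13 RPKM in 2014, against 1.65, 1.97 and 1.92 RPKM in 2013 (LFC -0.71, SE 0.16), and its LFC was -0.56 without replicate 2 of 2014. In soil N100 berries these 2 genes had LFC -0.02 and 0.03. Of 10 amino acid and peptide transporters 1 was higher, the member of the run on chromosome 18, and 3 were lower. Besides the nitrite transporter-like gene these were the amino acid permease *VIT_03s0038g02140* (3.91, 4.49 and 3.59 RPKM in 2014, against 6.84, 8.42 and 9.03 RPKM in 2013, LFC -0.93, SE 0.13) and the oligopeptide transporter *OPT1* (*VIT_19s0015g00860*, LFC -0.66), which was not called with the length trend removed (LFC -0.52).

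Glutathione S-transferases couple glutathione to other molecules, and the study followed them because thiol aroma precursors carry a glutathione group. Of the 6 described members tested here 2 were higher and 1 lower, and *VIT_07s0104g01800* was below the level of 0.5 RPKM and was not tested. *VIT_19s0015g02690*, described as GSTU25, was at 73.5, 48.8 and 67.9 RPKM in 2014, against 21.8, 26.7 and 19 RPKM in 2013 (LFC 1.46, SE 0.18, limma adjusted p = 0.00816). Its neighbour *VIT_19s0015g02680*, with the same description, was at 18, 13.3 and 17.3 RPKM in 2014, against 30.5, 20.2 and 19.1 RPKM in 2013 and was not called (LFC -0.49, SE 0.20), but it was called lower with the length trend removed (LFC -0.68). *GSTZ2* (*VIT_12s0035g02100*) was lower (4.79, 2.73 and 4.12 RPKM in 2014, against 6.19, 8.85 and 7 RPKM in 2013, LFC -0.86, SE 0.21) and *GSTU10* (*VIT_01s0026g02400*) was higher at a low level (LFC 0.64, and 0.40 with the length trend removed, not called). *GSTU7* (*VIT_06s0004g05680*) was at 48.5, 38.3 and 37.8 RPKM in 2014, against 37, 29.7 and 29.6 RPKM in 2013, without overlap but not called (LFC 0.36, SE 0.14). *GSTU8* (*VIT_16s0039g01070*) was at 46.7, 6.49 and 7.38 RPKM in 2014, against 6.31, 8.72 and 3.48 RPKM in 2013, so that its LFC of 1.13 (SE 0.72, not called) rested on replicate 1 of 2014. In soil N100 berries *VIT_19s0015g02690* had LFC 0.32 and was not called, with an interaction of LFC 1.15 (limma adjusted p = 0.96).

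Among 34 transcription factors tested, 6 were higher and 4 lower (median LFC 0.09), where 17.7% of all described genes were higher and 16.9% lower. Without replicate 2 of 2014 these were 10 and 5, and with the length trend removed 5 and 6. *VIT_08s0007g04180*, a transcription factor without further name, was at 68.8, 66.7 and 68.8 RPKM in 2014, against 22.4, 29.2 and 20.5 RPKM in 2013 (2.83-fold, SE of the LFC 0.13, limma adjusted p = 0.00389), and had LFC 1.49 in soil N100 berries and 1.74 at (v + 28). The Myb gene *VIT_07s0197g00060* had LFC 0.71. *NAC61* (*VIT_17s0000g09310*) was lower, at 3.59, 4.14 and 3.39 RPKM in 2014, against 9.86, 10.8 and 8.43 RPKM in 2013 (LFC -1.28, SE 0.12), and the B-box zinc finger gene *VIT_14s0068g01380* had LFC -0.73. *LBD41* (*VIT_14s0006g02950*), of the lateral organ boundaries family and named after its values were seen, was at 76.6, 30.5 and 48.2 RPKM in 2014, against 12.2, 16.6 and 10.1 RPKM in 2013 (LFC 1.89, SE 0.33).

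*ABCB19* (*VIT_14s0108g00430*), an exporter of auxin, was at 6.75, 9.66 and 6.92 RPKM in 2014, against 4.02, 3.5 and 3.79 RPKM in 2013 (LFC 0.94, SE 0.15). The libraries of the years did not overlap in this gene, as in every gene called higher. The auxin-responsive genes *VIT_11s0016g00500* and *VIT_07s0031g02740* had LFC 1.02 and -0.97. Of 4 gibberellin genes 1 was lower (*VIT_14s0066g01790*, LFC -0.71). Of 9 cell division and histone genes 2 were lower and none higher. *PROLIFERA* (*VIT_07s0005g01430*), a helicase of DNA replication, was at 0.614, 0.636 and 0.783 RPKM in 2014, against 2.5, 2.52 and 2.67 RPKM in 2013 (LFC -1.38, SE 0.11, limma adjusted p = 0.00358), and the cyclin *CYCD1;1* (*VIT_01s0026g00710*) had LFC -0.93. The 2 histone H4 genes of the list were not called (LFC 0.26 and 0.03).

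In sugar and starch metabolism 2 of 9 genes were higher and 3 lower. The inositol oxygenase *VIT_11s0016g02800*, which feeds inositol into wall sugars, was at 7.11, 4.87 and 6.34 RPKM in 2014, against 1.57, 3.43 and 0.891 RPKM in 2013 (LFC 1.54, SE 0.36). Lower were stachyose synthase (*VIT_07s0005g01680*, LFC -1.19), the starch enzyme *APL3* (*VIT_03s0038g04570*, LFC -1.02) and a beta-fructosidase (*VIT_16s0022g00670*, LFC -1.01). The MtN3 sugar exporter *VIT_07s0104g01340* was lower (8.86, 5.78 and 9.04 RPKM in 2014, against 16.3, 14.6 and 14.3 RPKM in 2013, LFC -0.91, SE 0.17), and the sugar transporter *VIT_14s0030g00340* was just past the fold threshold (LFC 0.60, and 0.56 with the length trend removed). Of 12 lipid genes 2 were higher and 3 lower. The stearoyl desaturase *VIT_05s0094g00740*, which places the first double bond in fatty acids, was at 12.2, 7.48 and 20.9 RPKM in 2014, against 2.49, 4.5 and 1.97 RPKM in 2013 (LFC 1.96, SE 0.39). The sulfotransferase *VIT_13s0084g00240*, which in Arabidopsis acts on hydroxyjasmonate, was at 7.58, 7.04 and 7.24 RPKM in 2014, against 18.2, 19.6 and 19.7 RPKM in 2013 (LFC -1.34, SE 0.08, limma adjusted p = 0.00166). The other lower members were a hydrolase (*VIT_08s0040g00960*, LFC -1.26) and a glycerol-3-phosphate dehydrogenase (*VIT_11s0016g02000*, LFC -1.25).

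Of 8 redox genes 2 were higher and 3 lower. The 2 genes described as catalase 2, enzymes that break down hydrogen peroxide, were lower together. *VIT_00s0698g00010* was at 35.8, 54 and 32.4 RPKM in 2014, against 94.8, 59 and 72.7 RPKM in 2013 (LFC -0.89, SE 0.23), and *VIT_04s0044g00020* had LFC -0.85. The 2 have the same recovered length (1763 bases), and reads of near-identical copies may be split between them. Thioredoxin 2 (*VIT_01s0026g01460*) was at 156, 121 and 134 RPKM in 2014, against 239, 279 and 211 RPKM in 2013 (LFC -0.83, SE 0.14). Ascorbate peroxidase 4 (*VIT_18s0001g06370*) was higher (LFC 0.66), as was the hemoglobin gene *VIT_03s0063g01960* (LFC 1.19), and neither was called with the length trend removed. In metal handling 3 of 10 genes were higher and 2 lower, against 4 and 1 without replicate 2 of 2014 and 1 and 3 with the length trend removed. The copper chaperone *VIT_19s0014g02730* was at 1591, 1248 and 1828 RPKM in 2014, against 1025, 873 and 819.6 RPKM in 2013 (LFC 0.77, SE 0.18), and its neighbour, the metallothionein gene *VIT_19s0014g02740*, was at 10639, 8140 and 11315 RPKM in 2014, against 7573, 6108 and 4936 RPKM in 2013, without overlap but not called (LFC 0.70, SE 0.25). The metallothionein gene was picked out after its values were seen. A heavy-metal-associated protein (*VIT_06s0061g00440*, LFC 0.66) and a metal tolerance protein (*VIT_08s0007g06760*, LFC 0.69) were higher, and a copper chaperone-related gene (*VIT_05s0077g01700*, LFC -0.97) was lower. The copper chaperone and the heavy-metal-associated protein were not called with the length trend removed (LFC 0.54 and 0.55).

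In the remaining lists few genes were called. *VIT_17s0000g05110*, described as a heme-binding electron carrier, was abundant, at 1197, 1157 and 976 RPKM in 2014, against 642, 549.8 and 505 RPKM in 2013 (LFC 0.97, SE 0.14), whereas *CYP89A5* (*VIT_16s0039g00880*) had LFC -1.27. The terpene synthase *TPS21* (*VIT_19s0014g04930*), a maker of sesquiterpene scent in Arabidopsis, was at 16.2, 11.8 and 20.6 RPKM in 2014, against 8.47, 11.4 and 7.82 RPKM in 2013 (LFC 0.76, SE 0.22). A vacuolar water channel (*VIT_06s0061g00730*, LFC -0.95), a serine-type endopeptidase (*VIT_18s0001g00510*, LFC -0.99) and a protein kinase (*VIT_13s0019g04550*, LFC 0.68) were also called. By limma 0 of 24 genes of the smaller lists were called, with 6 at an unadjusted p under 0.05 and 0 called by limma-voom, namely the 6 phenylpropanoid and flavonoid genes, 5 peroxidases, 2 laccases, 4 protease inhibitors, 4 methyltransferases, 2 sulfate transporters and 1 abscisic acid gene. With the length trend removed 1 phenylpropanoid gene and 1 laccase were lower, and without replicate 2 of 2014 1 methyltransferase was higher. Among them the phenylalanine ammonia-lyase *VIT_08s0040g01710*, named after its values were seen, was at 70.3, 8.08 and 4.48 RPKM in 2014, against 10.4, 11.2 and 7.4 RPKM in 2013, so that only replicate 1 of 2014 stood out. Leaving out replicate 2 of 2014 also raised the calls to 1 higher and 3 lower protein kinases (of 15), 2 higher and 1 lower lipid transfer protein (of 7), 2 higher pectin enzymes (of 9) and terpene synthases (of 3), 1 higher and 3 lower cell division and histone genes (of 9), and 1 higher UDP-glycosyltransferase (of 8) and protease (of 13).

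Most of the called genes, 1952 of 2122, have no description in the sources used here. The largest rises among them were *VIT_18s0001g08160*, at 45, 19.8 and 33.2 RPKM in 2014, against 2.45, 3.37 and 2.15 RPKM in 2013 (10.1-fold, LFC 3.34, SE 0.29), and *VIT_12s0059g00440*, at 27, 3.48 and 15.4 RPKM in 2014, against 0.657, 1.22 and 0.39 RPKM in 2013 (LFC 3.31, SE 0.66). The largest falls were *VIT_17s0000g00820*, at 1.88, 2.25 and 0.593 RPKM in 2014, against 15.1, 9.97 and 14.3 RPKM in 2013 (LFC -2.80, SE 0.35), and *VIT_03s0063g01690*, at 1.3, 1.04 and 0.808 RPKM in 2014, against 11.8, 8.08 and 10.6 RPKM in 2013 (LFC -2.78, SE 0.17). The first rise and both falls were also called in soil N100 berries (LFC 2.85, -2.30 and -2.34).

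The year difference was compared between the stages in the control vines. At (v + 28), in the fit of all 24 libraries, 1228 genes were higher and 697 lower in 2014 (11.1% of 17268, 7.11% and 4.04%). Of the genes higher at (v + 35), 1173 of 1214 had the same sign at (v + 28) and 524 were called, with a median LFC of 0.56 there. Of the lower genes 706 of 888 had the same sign and 229 were called, with a median LFC of -0.32. The interaction contrast called 287 genes with a more positive and 415 with a more negative year effect at (v + 35) than at (v + 28) (1.66% and 2.4%, 4.07% together), and 233 and 533 with the length trend removed. This count rested on single libraries, with 407, 1997 and 361 calls without replicate 1, 2 or 3 of 2014 at (v + 35) and 441 and 421 without replicate 2 or 3 of 2013. At (v + 28) it was 415, 1057 and 441 without replicate 1, 2 or 3 of 2014 and 282 without replicate 2 of 2013. The largest interaction among the genes named above was that of the MtN3 sugar exporter *VIT_07s0104g01340*, which had LFC -0.91 at (v + 35) and LFC 1.38 at (v + 28) (interaction LFC -2.30, SE 0.47, limma adjusted p = 0.00945). The UDP-glycosyltransferase *VIT_13s0047g01230* had LFC -1.56 at (v + 35) and LFC 0.02 at (v + 28) (interaction LFC -1.57, SE 0.26, limma adjusted p = 0.00372).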

How the data were processed

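The authors called bases with CASAVA 1.8.2, used TopHat2 2.0.10 and Bowtie2 2.1.0 for alignment to the grapevine 12X assembly, counted uniquely aligned reads per V1 gene with HTSeq 0.5.4p3 and deposited RPKM values, with 1 table per year, from kits that do not mark strand. A gene with no read in any library of a year is missing from its table. Of 26740 genes 25334 were in both tables. Whole read numbers and gene lengths were recovered from the values (all 24 values of each gene within 0.0001 reads), and 99.96% of 18874 genes gave the same length in both tables, so the tables are on one scale. After median-ratio rescaling, log2(RPKM + 0.5) of genes averaging 0.5 RPKM or more was modelled with limma 3.58.1 with its trend option (R 4.3.3). Tables and plots used Python 3.11.15 with pandas 2.3.3, numpy 2.4.6 and matplotlib 3.10.9. The thresholds follow the study. Soil N100, (v + 28) and interaction contrasts came from a fit of all 24 libraries with 1 mean per group. The scripts were tested on simulated data. The study gives 3 biological replicates per group.

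Gene names came from the study's tables (554 genes with a known description), since 0 of 26740 IDs matched the reference table at hand. The 38 lists were defined by words in these descriptions. Named were 12 described genes for each direction, taken by size of the LFC among calls without overlap of the libraries, up to 4 called members per list by smallest adjusted p, nitrogen and glutathione S-transferase genes of the study's text, the 2 undescribed genes with the largest rise and fall, and described genes in runs. The members and lists were chosen with earlier results of these data known. Alternatives were pseudocounts of 0.1 and 1, other filters and scalings, no trend, limma-voom, 24 libraries, a replicate block, other fold thresholds and leaving out each library. The fits with the length trend removed and the 24-library fits without 1 library were chosen after seeing the data. Names outside the rule (LBD41, the hemoglobin gene and others so marked, and members given only by their LFC) were picked after their values were seen. 1 gene that the rule names is not reported here.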

Additional observations from a re-analysis of the deposited data

Results flagged for a closer look

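In 13 of the genes named above the year effect (2014 over 2013, control berries) differed between (v + 35) and (v + 28) by the limma interaction contrast over 24 libraries. The interaction LFC was -2.30 for the MtN3 gene *VIT_07s0104g01340*, -1.57 for the UDP-glycosyltransferase *VIT_13s0047g01230*, -1.24 for *NAC61* (*VIT_17s0000g09310*), -0.98 for the B-box gene *VIT_14s0068g01380* and -0.95 for the sulfotransferase *VIT_13s0084g00240*, and these 5 stayed called in all 12 fits without 1 library. It was -1.36 for the annexin *VIT_00s0357g00130* and -1.01 for NADH glutamate synthase *VIT_16s0098g00290*, each called in 8 of the 12 fits, and -1.54 for the jacalin lectin *VIT_18s0001g13210*, -1.07 for the catalase *VIT_00s0698g00010* and -0.97 for *GSTZ2* (*VIT_12s0035g02100*), called in 3, 5 and 3 of them. The wound-responsive genes *VIT_12s0057g00070* and *VIT_12s0057g00120* had a more positive year effect at (v + 35), with 1.34 and 1.17, called in 6 and 4 of the 12 fits. Phosphoribulokinase (*VIT_02s0109g00080*), named after its values were seen, had -1.05 and was called in 1 of the 12 fits. With the length trend removed glutamate synthase alone among the 13 was no longer called.

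Genes listed in the table of a single year were left out of the comparison. Of 789 genes listed only in 2014, 3 had reads in all 3 control libraries at (v + 35), and of 617 listed only in 2013, 7 did. Their levels were low, with the largest mean at 0.223 RPKM in 2014 and 0.291 RPKM in 2013, and 0 of them reached a mean of 0.5 RPKM.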

How the results depend on the processing

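The count of calls of the year difference in control berries was 2122. It stayed within 1.5 times under both pseudocounts, other expression filters, no rescaling and quantile normalization. The same held for no trend, limma-voom, 24 libraries and the removed length trend (1531 to 2432 genes over all of these). The called genes themselves changed more. Of the 2122, 1220 were called in the same direction with the length trend removed, 1732 without rescaling and 1705 with quantile normalization. The count was 487 at an LFC of at least 1 and 4273 with no threshold on the fold. Over all fits without 1 library it ranged from 203 to 3707, with 1202, 2427 and 878 without replicate 1, 2 or 3 of 2014 and 837, 1270 and 545 without replicate 1, 2 or 3 of 2013 after removal of the length trend, with 3650 without replicate 2 of 2014 before it, and 1693 to 3707 in the 24-library fit, where the spread is shared by all groups. In soil N100 berries the counts were 393 and 5451 at these fold thresholds and 1236 to 1827 without 1 library. The difference between the stages gave 186 and 1369 calls at these thresholds and 282 to 1997 without 1 library. For the difference between the treatments 1 gene passed with a pseudocount of 1 and 3 with no filter, and 0 to 1 without 1 library. The cause of these changes was not tested. Same-numbered replicates of the 2 years did not deviate together (r = 0.09, -0.42 and -0.11), so the numbers do not pair the libraries, and a fit with the replicate block called 17 genes. Of the 96 named genes 1 changed sign, NADH glutamate synthase, with an LFC of 0.31 once the length trend was removed and 0.28, 0.30, 0.33 and 0.35 when 1 library was also left out. Of the 91 called among them 81 were also called with the length trend removed, and 29 in every fit of the 6 libraries without 1. Differences of genes under about 1 RPKM are limited by depth, and functions are known for few genes.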
